A study of Homo sapiens with 51 samples.

Results

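Apolipoproteins are the protein components of lipoprotein particles, which carry lipids between cells. The 10 genes described here are 7 apolipoprotein genes (APOA1, APOA2, APOA4, APOB, APOC1, APOE and APOM) and 3 further genes known from yolk sac endoderm: AFP and RBP4, which encode secreted carrier proteins, and AMN, which encodes a subunit of an endocytic receptor. They were chosen by name, as rows of a count table whose Ensembl gene identifiers were matched to symbols, and all 10 were found among the 58051 gene rows. Of these, 9 passed a filter on low counts and entered the tests with 19603 genes in all, and APOA4 did not pass it.

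The study followed differentiation of H1, a widely used line of human embryonic stem cells. One group was left untreated in mTeSR medium, and the treated cells grew in TeSR E5 with 3.2 µM insulin, 20 ng/mL FGF2 and 1 µM of an agent spelled LY29004 in the labels. To that medium was added either 100 ng/mL Activin with 10 ng/mL BMP4 (called Activin+BMP4 here) or 50 ng/mL BMP4 alone (called BMP4), and RNA was taken at 1, 6, 12, 24, 36, 48, 72 and 96 h. Each of the 17 groups had 3 libraries, 51 in all, made from total RNA of cells on Matrigel. The conditions differ both in Activin and in the dose of BMP4, so the effects of these cannot be told apart. The untreated group was taken at 0 h, with no untreated group at the later times. A treated group therefore differs from it in time and medium as well as in growth factors, and these cannot be told apart either. The labels name no separate cultures, so the p-values measure the spread between these libraries, which may be technical.

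In the embryo, the endoderm of the yolk sac takes up maternal lipids and proteins, packs lipids into lipoproteins and secretes carrier proteins before the liver does so. APOB is the structural protein of large lipoproteins, APOA1 and APOA2 are the main proteins of high-density lipoprotein, and APOE is a ligand for lipoprotein receptors that many cell types make. In liver and intestine, APOA1, APOA2 and APOB are known targets of HNF4A, a nuclear receptor of endoderm, and AFP is a known target of HNF1 and forkhead factors.

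Total counts per library ran from 22788905 to 30354633, with a median of 24944617. In 3 groups 1 library stood apart from the other pair: replicate 2 of Activin+BMP4 at 48 h, replicate 3 of Activin+BMP4 at 96 h and replicate 1 of BMP4 at 12 h. Levels are given as CPM, counts scaled to a common library size after each library total was adjusted by a scaling factor. They are shown as mean ± SD over 3 libraries where they are not given by library. A gene was called at an edgeR quasi-likelihood adjusted p under 0.05 and a change of at least 1 on the log2 scale, and a "fold" below comes from that fit. Fewer cells of a type and less RNA per cell cannot be told apart in these bulk samples.

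Promoter sequences are shown for 4 members whose levels differed between the conditions at 96 h, as the windows from 250 bases before to 50 bases after an annotated start, from RefSeq on GRCh38.p14. Capitals mark matches, on either strand, to motifs, of which 6 were searched. These were the box of core promoters with the letters TATAAA, the half-site of nuclear receptors with AGGTCA, the half-site of HNF1 with GTTAAT, the forkhead motif with TGTTTAC and the motif of GATA factors with AGATAA. The remaining motif, the core of HNF4 sites with CAAAGTCCA, had no match in any member's window. The APOA2 window is chr1:161223579-161223878 on the minus strand, that of AFP is chr4:73435971-73436270 on the plus strand, that of APOA4 is chr11:116823255-116823554 on the minus strand and that of APOC1 is chr19:44914422-44914721 on the plus strand.
APOA2: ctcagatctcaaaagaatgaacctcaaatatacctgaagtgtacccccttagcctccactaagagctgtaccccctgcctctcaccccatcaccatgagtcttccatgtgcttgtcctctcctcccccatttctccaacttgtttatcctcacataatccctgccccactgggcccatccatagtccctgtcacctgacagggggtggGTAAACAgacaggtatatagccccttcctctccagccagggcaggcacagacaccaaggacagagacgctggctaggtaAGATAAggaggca
AFP: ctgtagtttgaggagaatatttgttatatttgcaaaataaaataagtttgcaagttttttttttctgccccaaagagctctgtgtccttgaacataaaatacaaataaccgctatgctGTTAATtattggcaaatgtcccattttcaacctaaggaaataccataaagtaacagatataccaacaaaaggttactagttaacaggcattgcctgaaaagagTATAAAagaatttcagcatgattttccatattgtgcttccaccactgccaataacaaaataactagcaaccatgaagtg
APOA4: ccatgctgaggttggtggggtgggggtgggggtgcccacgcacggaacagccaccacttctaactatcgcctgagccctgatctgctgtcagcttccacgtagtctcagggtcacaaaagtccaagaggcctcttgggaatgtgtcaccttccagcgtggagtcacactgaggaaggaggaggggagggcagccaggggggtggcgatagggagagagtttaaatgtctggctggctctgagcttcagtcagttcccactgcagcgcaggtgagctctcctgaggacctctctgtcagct
APOC1: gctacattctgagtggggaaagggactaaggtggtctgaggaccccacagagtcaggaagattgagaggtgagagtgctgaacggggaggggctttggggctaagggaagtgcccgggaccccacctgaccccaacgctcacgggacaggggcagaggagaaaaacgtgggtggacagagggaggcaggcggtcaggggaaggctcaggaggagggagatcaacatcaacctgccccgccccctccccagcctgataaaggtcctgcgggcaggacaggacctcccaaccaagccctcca

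The APOA2 window, printed in the direction of the gene, held a forkhead match that begins 42 bases before the start. This match reads on the strand opposite to the printed one, where it appears as GTAAACA. The window also held a GATA match after the start. The AFP window held a TATA box 29 bases before the start and an HNF1 half-site 132 bases before it. The APOA4 and APOC1 windows held none of the 6. Windows were found for 8 of the 10 members, APOA1 and APOB being the other two. Among the remaining members AMN had an AGGTCA match, APOE had AGATAA in 1 of 3 windows, and APOM had no match. RBP4 had TATAAA in each of 3 windows. In 2 of them, which overlap, the matches on both strands are the same stretch of the genome. Of 35116 RefSeq promoter windows of this length, TATAAA was in 11.5%, AGGTCA in 13.8%, GTTAAT in 6.88%, TGTTTAC in 3.42%, AGATAA in 10.3% and CAAAGTCCA in 0.384%. A match is a run of letters and was not tested as a binding site.

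The high-density lipoprotein genes APOA1 and APOA2 had few counts for the first 48 h in both conditions and were high at 96 h of Activin+BMP4. APOA1 lies at chr11:116835751-116837950 on the minus strand and APOA2 at chr1:161222292-161223631 on the minus strand. APOA1 stood at 0.121, 0.121 and 0.335 CPM in the untreated libraries, and it was still at 0.275, 0.208 and 0.0751 CPM at 48 h of Activin+BMP4. At 72 h of Activin+BMP4 the libraries had 1.72, 1.65 and 0.997 CPM, and at 96 h they had 18.3, 17.4 and 9.26 CPM. With BMP4 they had 0.171, 0.112 and 0.278 CPM at 72 h and 1.19, 2.23 and 1.74 CPM at 96 h. The 3 Activin+BMP4 libraries were above the 3 BMP4 libraries at both times, and APOA1 rose in both conditions between 48 and 96 h, by 6.31 ± 0.39 (SE) on the log2 scale with Activin+BMP4 and by 3.38 ± 0.45 with BMP4 (edgeR quasi-likelihood adjusted p 7.7e-18 and 2.22e-08).

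APOA2 had 1 count in all in the 3 untreated libraries. With Activin+BMP4 it reached 1.68, 1.61 and 1.73 CPM at 72 h and 18.9, 22.6 and 12.1 CPM at 96 h. With BMP4 it reached 0.754, 0.711 and 0.635 CPM at 72 h and 0.845, 0.793 and 0.753 CPM at 96 h. The Activin+BMP4 libraries at 96 h lay far above those at 72 h, and the BMP4 libraries at 96 h lay close to those at 72 h, a difference that was not tested. Against the single untreated count, the ratio at 96 h was 1317 (95% interval for counting error 236 to 52034) with Activin+BMP4 and 58.5 (10.1 to 2345) with BMP4. At 72 h it was 123 (21.7 to 4901) and 51.7 (8.92 to 2078).

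APOA4, which encodes an apolipoprotein of chylomicrons and high-density lipoprotein, was at 0 counts in 48 of the 51 libraries. The other 3 were those of Activin+BMP4 at 96 h, with 12, 7 and 4 counts (0.445, 0.234 and 0.139 CPM). No library of any other group overlapped them. The level there was at least 7.55-fold higher than with BMP4 at 96 h, at least 6.59-fold higher than in untreated cells and at least 6.82-fold higher than at 48 h of Activin+BMP4. The floor behind these bounds was 3 counts, taken for the group at 0 as a whole. Without the filter on low counts, APOA4 passed the test at 96 h (edgeR quasi-likelihood adjusted p 0.00275). It lies at chr11:116820700-116823306 in the same cluster as APOA1, and an antisense gene, AP006216.3, shares 43.1% of its exon bases.

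**Figure D1:**
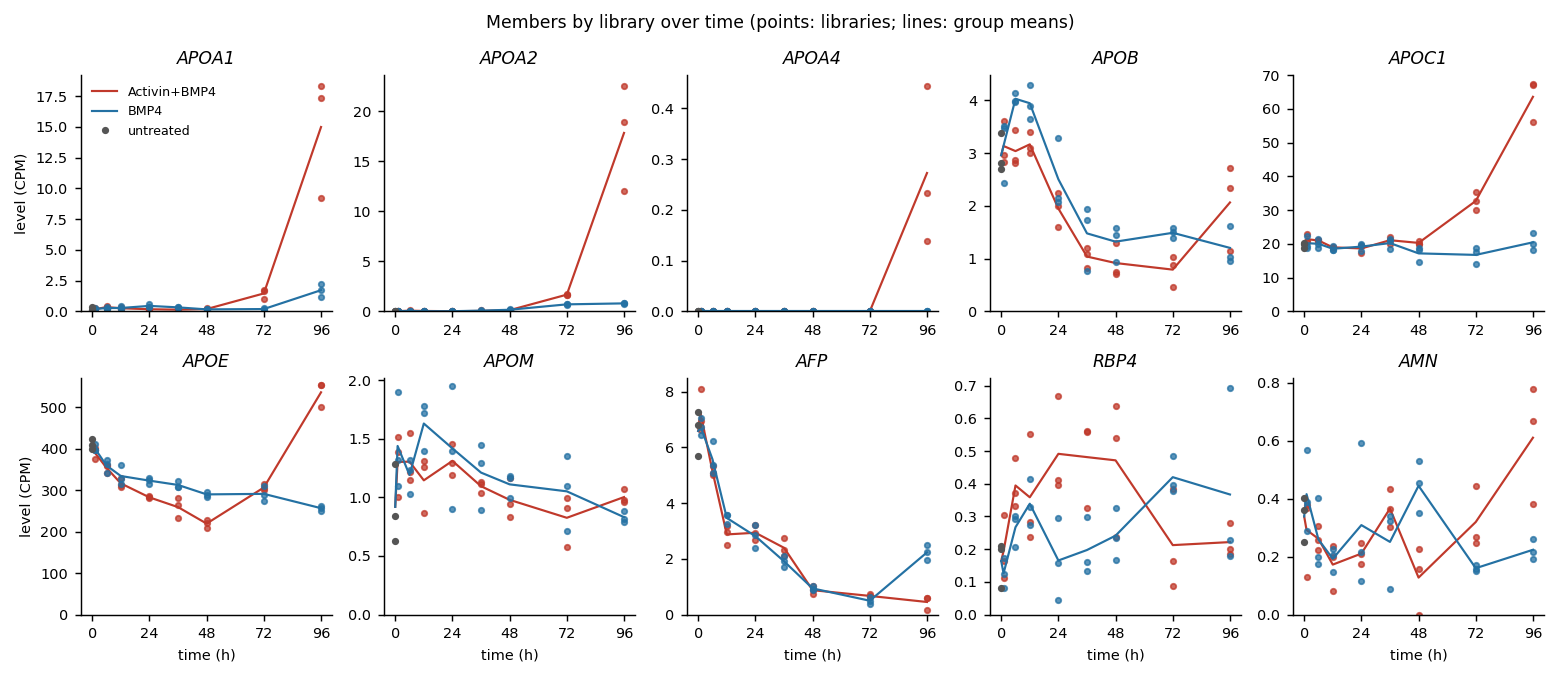
Level of each member in CPM (vertical axis, from 0, with its own scale in each panel) against time in h, with 1 point per library and lines through the group means. Untreated libraries are drawn at time 0 in grey, Activin+BMP4 in red and BMP4 in blue. APOA1, APOA2, APOC1 and APOE are highest at 96 h of Activin+BMP4, APOE is lowest at 48 h of Activin+BMP4, APOA4 is above 0 at 96 h of Activin+BMP4 only, and AFP is at most 1.02 CPM at 48 and 72 h in both conditions and at 1.97 to 2.498 CPM at 96 h of BMP4.

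The exchangeable apolipoproteins APOE and APOC1 are neighbours on chromosome 19 and were the most abundant members per base of exon in untreated cells and at 96 h in both conditions. APOE had 424, 398 and 408 CPM in untreated cells, 209, 228 and 220 CPM at 48 h of Activin+BMP4 and 553, 553 and 500 CPM at 96 h of Activin+BMP4. With BMP4 it had 289, 284 and 296 CPM at 48 h and 258, 261 and 250 CPM at 96 h. The groups at 48 h did not overlap, with BMP4 above Activin+BMP4 by 0.40 ± 0.05 on the log2 scale, under the 1 needed for a call, and at 96 h the order was the opposite. From 48 to 96 h APOE rose by 1.29 ± 0.05 with Activin+BMP4 (2.44-fold), against a log2 change of -0.18 ± 0.05 with BMP4.

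APOC1, a small protein that limits the clearance of lipoproteins, had 18.8, 20.4 and 19.9 CPM in untreated cells, and its group means stayed between 16.7 and 21.4 CPM in each group but 2. Those 2 were Activin+BMP4 at 72 h, with 32.6, 35.5 and 30.1 CPM, and at 96 h, with 67.2, 67.5 and 56.0 CPM. The BMP4 libraries had 17.6, 18.7 and 13.9 CPM at 72 h and 19.9, 23.1 and 18.3 CPM at 96 h. The groups did not overlap at either time. At 72 h the difference of -0.96 ± 0.09 on the log2 scale was just short of the size needed for a call. The pseudogene APOC1P1, a near copy of APOC1 at 0.719 ± 0.146 CPM at 96 h of Activin+BMP4 and 0.274 ± 0.0848 CPM at 96 h of BMP4, and the gene model AC011481.3, which shares 43.2% of the exon bases of APOC1 on the same strand, were also called lower with BMP4. How reads were shared among these genes is not given in the sources used here, so the values of the pseudogene and of AC011481.3 are uncertain.

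APOB, like AFP, was below its untreated level at 48 h in both conditions. It had 2.69, 3.38 and 2.81 CPM in untreated cells and fell to 0.747, 1.29 and 0.713 CPM at 48 h of Activin+BMP4 and to 0.930, 1.59 and 1.45 CPM at 48 h of BMP4. The log2 change against untreated was -1.70 ± 0.28 and -1.16 ± 0.27 (edgeR quasi-likelihood adjusted p 1.98e-06 and 0.000314). With BMP4 the call was lost without replicate 1 of BMP4 at 48 h, at -0.96. At 96 h the libraries of Activin+BMP4 had 2.33, 2.71 and 1.15 CPM and those of BMP4 had 1.04, 1.62 and 0.950 CPM, which overlap. APOB was called higher at 96 h than at 48 h of Activin+BMP4, by 1.18 ± 0.29, although the libraries of these groups overlap as well, and this call was lost without replicate 2 of Activin+BMP4 at 96 h, at 0.93. APOM, a carrier of sphingosine 1-phosphate on high-density lipoprotein, had group means of 0.826 to 1.63 CPM and was called in none of the 19 comparisons. Its difference between the conditions at 96 h was -0.27 on the log2 scale, with a 95% interval of -0.81 to 0.26. APOM shares 8.19% of its exon bases with BAG6 on the opposite strand, which stood at 275 to 300 CPM in the same groups, and without a stated strand setting the value of APOM is uncertain.

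Of the secreted carriers, AFP, the albumin-like protein of fetal plasma, went the other way. It was at 6.79, 7.28 and 5.70 CPM in untreated cells and fell in both conditions, to 0.865, 0.748 and 1.01 CPM at 48 h of Activin+BMP4 and to 0.930, 1.02 and 0.868 CPM at 48 h of BMP4. At 96 h it was at 0.593, 0.167 and 0.592 CPM in the Activin+BMP4 libraries and at 2.498, 2.23 and 1.97 CPM in those of BMP4. The groups overlapped at 48 h and did not at 96 h. From 48 to 96 h AFP rose by 1.24 ± 0.19 with BMP4 on the log2 scale, and at 96 h it was still 2.96-fold lower than in untreated cells. With Activin+BMP4 it had fallen 14.7-fold against untreated cells by 96 h.

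RBP4, the carrier of retinol in plasma, had group means of 0.126 to 0.491 CPM and 394 counts over the 51 libraries, so its calls rest on few counts. It was at 0.411, 0.667 and 0.396 CPM at 24 h of Activin+BMP4 and at 0.0431, 0.296 and 0.156 CPM at 24 h of BMP4, without overlap. This gave its call at 24 h, of -1.54 ± 0.52 (edgeR quasi-likelihood adjusted p 0.0215), which 4 of 11 alternatives did not keep, among them leaving out replicate 2 of Activin+BMP4 (adjusted p 0.109) or replicate 1 (0.136) or 3 (0.0639) of BMP4. RBP4 lies within the span of FFAR4 on the opposite strand, with 0 exon bases in common.

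AMN encodes amnionless, which anchors the endocytic receptor cubilin (gene CUBN) in the membrane. AMN had 0.778, 0.669 and 0.383 CPM at 96 h of Activin+BMP4 and 0.192, 0.216 and 0.262 CPM at 96 h of BMP4, without overlap. CUBN had 13.1, 10.7 and 4.39 CPM and 3.88, 3.93 and 3.60 CPM in the same libraries, again without overlap, with a difference of -1.31 ± 0.25 (edgeR quasi-likelihood adjusted p 2.51e-05). At 48 h AMN was called the other way, higher with BMP4 by 1.73 ± 0.54, and this call was lost without replicate 2 of Activin+BMP4, which had 0 AMN counts and is 1 of the libraries that stood apart (adjusted p 0.0716). AMN shares 16.4% of its exon bases with CDC42BPB on the opposite strand, at 228 to 238 CPM in the 96 h groups, and is uncertain for the same reason as APOM. CDC42BPB changed by 0.29 on the log2 scale from 48 to 96 h of Activin+BMP4, and AMN by 2.18 ± 0.52.

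The comparison of BMP4 with Activin+BMP4 at each time asks when and in which genes the conditions part. Up to 12 h, 0 of the 9 members tested were called by edgeR (0, 0 and 1 had an unadjusted p under 0.05 at 1, 6 and 12 h) and 0 by DESeq2, when the share of all genes called was 0.0051%, 0.505% and 1.42%. At 24 h 1 of 9 was called, RBP4, against 4.01% of all genes. At 36 h 0 of 9 were called by edgeR or by DESeq2, with 2 at an unadjusted p under 0.05, against 5.58% of all genes. APOE was already higher with BMP4, without overlap, by 0.19 on the log2 scale at 24 h and 0.27 at 36 h. Its edgeR quasi-likelihood adjusted p was 0.0028 and 3.41e-05, and it missed a call by size only. At 48 h the 1 member called was AMN, against 9.25% of all genes. APOE (log2 0.40) and APOC1 (log2 -0.24) also differed there without overlap, under the size for a call (edgeR quasi-likelihood adjusted p 9.41e-09 and 0.0341).

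At 72 h 2 of 9 members were called, against 9.63% of all genes. These were APOA1, 7.65-fold lower with BMP4 (log2 -2.94 ± 0.44), and APOA2, 2.37-fold lower (log2 -1.25 ± 0.35). Their adjusted p-values by edgeR were 4.94e-07 and 0.0035. Without replicate 3 of Activin+BMP4 at 72 h, 5 members were called, the added ones being APOB (log2 1.16), APOC1 (log2 -1.02) and RBP4 (log2 1.68).

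At 96 h 6 of 9 members were called, against 15.6% of all genes. APOA2 was 22.3-fold lower with BMP4 (log2 -4.48 ± 0.32), APOA1 was 8.67-fold lower (-3.12 ± 0.29), APOC1 was 3.11-fold lower (-1.64 ± 0.08), AMN was 2.67-fold lower (-1.42 ± 0.47) and APOE was 2.09-fold lower (-1.06 ± 0.05). AFP was 4.96-fold higher with BMP4 (2.31 ± 0.21). The edgeR quasi-likelihood adjusted p-values ran from 6.68e-22 for APOE to 0.00906 for AMN. So 5 members were lower, where 7.95% of all genes were, and 1 was higher, where 7.62% were. The median log2 change over the 9 members was -1.06, and 0.0049 over all genes tested. Replicate 3 of Activin+BMP4, which stood apart, had the lowest value of that group for APOA1, APOA2, APOA4, APOB, APOC1, APOE and AMN, and without it the 6 calls stood, with log2 differences of -4.69 for APOA2, -3.37 for APOA1 and -1.11 for APOE, and APOB was called too, at -1.07.

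**Figure D2:**
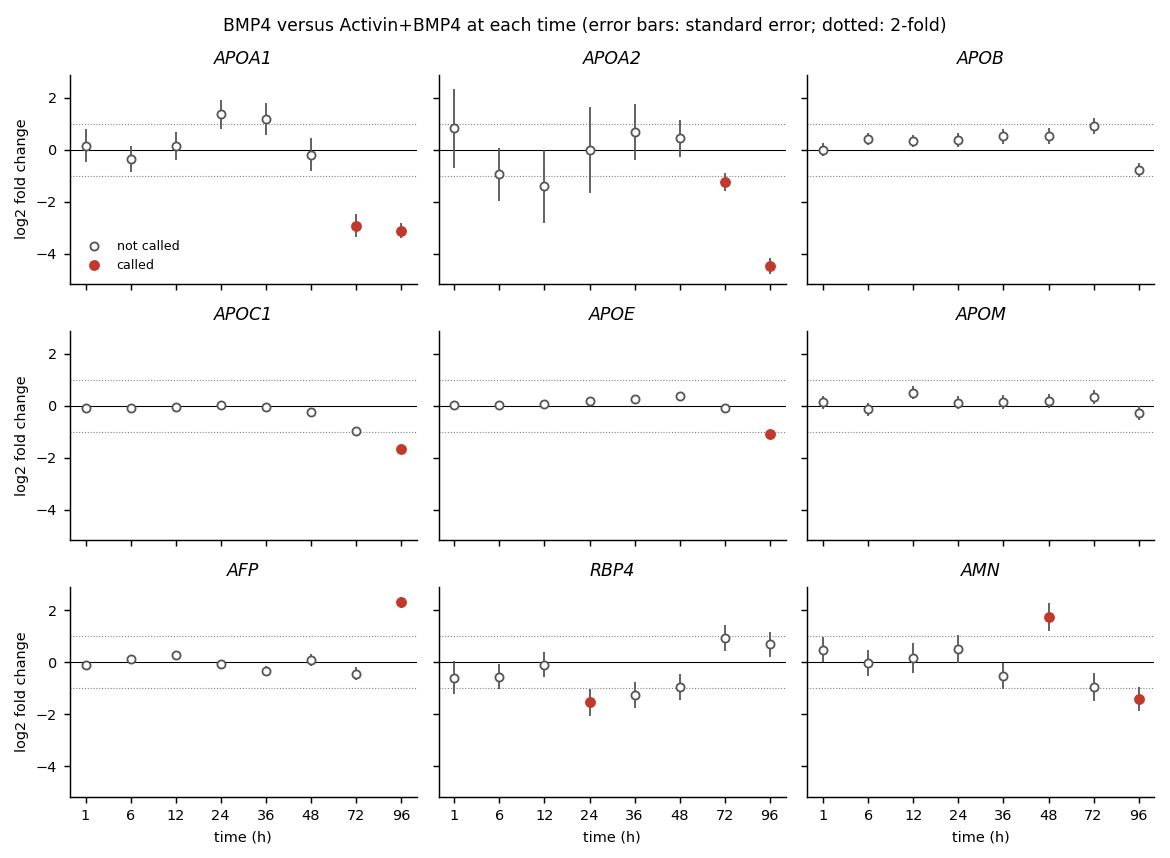
Log2 fold change of BMP4 versus Activin+BMP4 (vertical axis) at each time in h (horizontal axis, 1 step per time) for the 9 members tested, with standard errors from the edgeR fit. Filled points are called and open points are not, and the dotted lines mark a log2 change of 1 in either direction. APOA1 and APOA2 are called lower with BMP4 at 72 and 96 h, and 6 panels have a filled point at 96 h.

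Comparisons with untreated cells share 1 set of 3 control libraries, so their values are given side by side. With Activin+BMP4, 2 of 9 members were called at 24 h (AFP lower and RBP4 higher; 8.08% of all genes called), 5 at 48 h (APOB, AFP and AMN lower, APOA2 and RBP4 higher; 15.8%), 4 at 72 h (APOA1 and APOA2 higher, APOB and AFP lower; 21% of all genes) and 4 at 96 h (APOA1, APOA2 and APOC1 higher, AFP lower; 26.5%). With BMP4, 1 was called at 24 h (AFP lower; 7.21%), 3 at 48 h (APOA2 higher, APOB and AFP lower; 12.2%), 3 at 72 h (APOA2 and RBP4 higher, AFP lower; 16.9%) and 4 at 96 h (APOA1 and APOA2 higher, APOB and AFP lower; 23.2%). Several of these calls rest on few counts: those of APOA2 at 48 h were lost without replicate 1 or replicate 3 of untreated cells (edgeR adjusted p up to 0.135), those of RBP4 without replicate 2 of untreated cells (up to 0.132), and that of AMN without any of replicates 1 and 2 of untreated cells and of Activin+BMP4 at 48 h (up to 0.221). AFP was called lower than untreated at all 4 times in both conditions. APOA1 at 96 h was 76.7-fold higher than untreated with Activin+BMP4 and 8.85-fold higher with BMP4. APOE at 96 h was 0.39 ± 0.05 above untreated with Activin+BMP4 and -0.68 ± 0.05 with BMP4 on the log2 scale, with neither large enough for a call.

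From 48 to 96 h of Activin+BMP4, 6 of 9 members were called, against 16.5% of all genes, and all 6 were higher at 96 h, as were 10.3% of all genes. These were APOA1 (79.3-fold), APOA2 (145-fold), AMN (4.54-fold), APOC1 (3.13-fold), APOE (2.44-fold) and APOB (2.26-fold). At 48 h of Activin+BMP4 there were 14 counts in all for APOA1, 9 for APOA2 and 10 for AMN. At 48 h of BMP4 there were 12 for APOA1 and 12 for APOA2. The folds of these genes from 48 h are therefore uncertain in size. With BMP4, 3 of 9 were called, against 12.8%, and all 3 were higher, as were 8.02% of all genes: APOA1 (10.4-fold), APOA2 (4.83-fold) and AFP (2.36-fold). Tested as the difference of these 2 changes, 8 of 9 members were called, against 15.7% of all genes. In 6 the change with BMP4 was the lower (8.5% of all genes): the log2 difference of the changes was -4.91 ± 0.85 for APOA2, -3.15 ± 0.71 for AMN, -2.93 ± 0.76 for APOA1, -1.47 ± 0.07 for APOE, -1.40 ± 0.12 for APOC1 and -1.31 ± 0.41 for APOB (edgeR quasi-likelihood adjusted p from 5.73e-21 for APOE to 0.00732 for APOB). In 2 it was the higher (7.22% of all genes): AFP by 2.21 ± 0.31 and RBP4 by 1.65 ± 0.69 (adjusted p 1.1e-07 and 0.0464 by edgeR). The RBP4 value was past the threshold in 7 of 18 alternatives. The mean share of counts from mitochondrial genes also moved over this interval, from 2.497% at 48 h to 0.810% at 72 h and 1.498% at 96 h of Activin+BMP4 and from 2.34% to 1.10% and 1.17% with BMP4, and its part in these changes was not tested.

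Levels of different genes were compared roughly, per kb of all annotated exons of a gene, which can be longer than the transcript made. The order in untreated cells was APOE (187 ± 5.90 CPM per kb), APOC1 (16.0 ± 0.631), AFP (2.02 ± 0.248), APOM (0.554 ± 0.202) and APOB (0.200 ± 0.0248), followed by 5 members at 0 to 0.135 CPM per kb. At 96 h of Activin+BMP4 APOE (244 ± 14.1) and APOC1 (51.6 ± 5.31) were followed by APOA2 (18.9 ± 5.63) and APOA1 (10.5 ± 3.50), and then by APOM (0.604 ± 0.0357). The libraries of APOA2 (12.8 to 23.9) and APOA1 (6.50 to 12.9) overlap by a little, and within each of the 3 libraries APOA2 stood above APOA1. At 96 h of BMP4 APOA1 (1.21 ± 0.367), APOA2 (0.844 ± 0.0488) and AFP (0.685 ± 0.0816) followed APOE (117 ± 2.38) and APOC1 (16.6 ± 2.00). The libraries of APOA1 (0.836 to 1.57) and APOA2 (0.797 to 0.895) overlap there, with APOA1 the higher in 2 of the 3, so that their order is within the spread.

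The name yolk sac endoderm was checked against genes known from that tissue. Of 18 yolk sac and visceral endoderm factors tested at 96 h, 14 were called lower with BMP4 and 3 higher, with LRP2 and DAB2 among the higher ones. Transcription factors of endoderm were present at 96 h of Activin+BMP4: HNF4A at 84.3, 89.6 and 59.5 CPM against 1.19, 1.59 and 1.24 CPM with BMP4, FOXA2 at 59.8 ± 4.45 against 2.64 ± 0.176 CPM and SOX17 at 171 ± 16.2 against 10.5 ± 0.813 CPM. HNF4A had 0.104 ± 0.0400 CPM at 48 h and 14.5 ± 2.18 CPM at 72 h of Activin+BMP4, the interval in which APOA1 and APOA2 rose from near 0 there. APOB was at 0.791 ± 0.302 CPM at 72 h of Activin+BMP4, its lowest group mean. With BMP4, APOA2 went from 0.160 ± 0.0632 CPM at 48 h to 0.700 ± 0.0600 CPM at 72 h (12 and 57 counts in all). HNF4A was at 0.0761 ± 0.0424 CPM at 72 h of BMP4. The part of HNF4A in the levels of the members was not tested. Of the secreted genes that define yolk sac endoderm and fetal liver, TTR had 4 counts over the 51 libraries, APOC3 had 2, APOH had 0, ALB had 62, SERPINA1 had 101 and AHSG had 311, with at most 24 in a library. AMBP, the highest of the 7 genes looked at, had 2213 counts and was at 1.90 ± 0.184 CPM in untreated cells, 0.717 ± 0.126 CPM at 96 h of Activin+BMP4 and 0.678 ± 0.182 CPM at 96 h of BMP4. FOXA2 and SOX17 also mark definitive endoderm, and HNF4A also acts in liver and intestine, so none of the 3 is particular to yolk sac endoderm. These 7 secreted genes had group means of at most 0.717 CPM at 96 h. The members are therefore named by gene only.

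**Figure D3:**
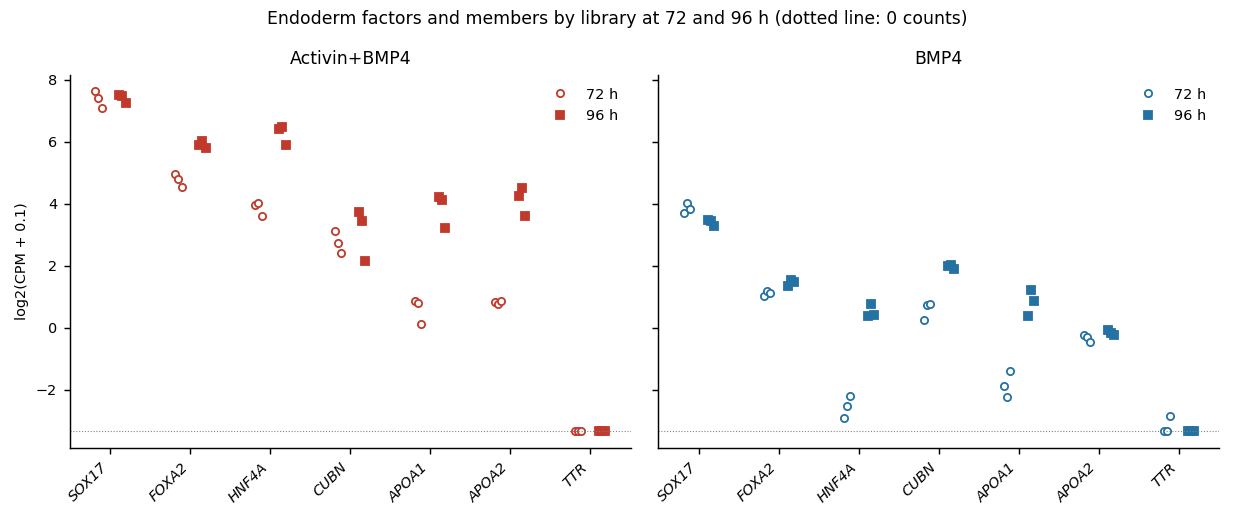
Levels by library at 72 h (open circles) and 96 h (filled squares), as log2(CPM + 0.1), of 4 endoderm genes, APOA1, APOA2 and TTR, with Activin+BMP4 on the left and BMP4 on the right. The dotted line marks 0 counts. HNF4A, APOA1 and APOA2 stand higher at 96 h than at 72 h of Activin+BMP4, and TTR lies on the line in each Activin+BMP4 library.

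Marker lists of other cell types moved with the same contrast. At 96 h, 14 of 14 definitive endoderm markers and 14 of 18 yolk sac and visceral endoderm factors tested, lists that share several genes, were lower with BMP4 and 3 of those 18 were higher, while 11 of 12 amnion markers and 11 of 12 extraembryonic mesoderm markers were higher. The definitive endoderm list summed to 3800 to 5023 CPM in the Activin+BMP4 libraries and to 302 to 362 CPM in the BMP4 libraries, with 0 of 14 at 0. Much of the Activin+BMP4 sum was CER1, a gene of both endoderm lists, at 2917 ± 438 CPM there and 49.4 ± 5.26 CPM with BMP4. The amnion list summed to 70.5 to 93.7 and to 1772 to 2001 CPM, with 1 of 13 at 0 in the former. The extraembryonic mesoderm list summed to 494 to 734 and to 2766 to 3239 CPM, with 0 of 12 at 0. Of the 15 hepatocyte markers 4 could be tested and 1, TDO2, was called, higher with BMP4, and the list summed to 41.8 to 56.2 and to 46.1 to 53.7 CPM. Blood and macrophage markers, of interest because macrophages make APOE and APOC1, summed to 6.23 to 8.74 CPM at 96 h of Activin+BMP4 and to 8.98 to 11.2 CPM at 96 h of BMP4, with 1 of 6 tested called higher (CSF1R) and 1 lower. The part of these cell types in the levels of the members was not tested.

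Other genes of lipid transport were called at 96 h in both directions, beside 7.62% of all genes called higher with BMP4 and 7.95% called lower. The lists are short, and their counts are given as a description. Of 13 further apolipoprotein genes 5 could be tested and 1 was called, APOL6, at 0.514 CPM under BMP4 and at 0.222 CPM under Activin+BMP4 (named because it was the only one). Of 18 genes of lipoprotein assembly and processing tested, 2 were called higher with BMP4: LPL, the lipase that releases fatty acids from lipoproteins, at 114 ± 10.0 against 2.14 ± 0.670 CPM, and LIPG, endothelial lipase, at 71.6 ± 16.5 against 25.2 ± 5.07 CPM. Another 2 were lower: ABCA1, the exporter that loads lipid onto APOA1, at 50.4 ± 2.40 against 114 ± 44.2 CPM, and DGAT2, an enzyme of triglyceride synthesis, at 3.76 ± 0.501 against 8.34 ± 1.53 CPM. Of 16 uptake receptors and partners tested, 3 were higher with BMP4: LRP2 (megalin), which works with cubilin, at 14.3 ± 1.11 against 1.98 ± 0.157 CPM, DAB2, an adaptor of endocytosis, at 50.3 ± 4.24 against 20.8 ± 5.34 CPM, and STRA6, a receptor for RBP4, at 16.3 ± 0.294 against 6.98 ± 0.907 CPM. Among 3 lower ones were VLDLR, a receptor for APOE, at 44.2 ± 0.871 against 116 ± 2.60 CPM, and CUBN.

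Of 10 secreted plasma protein genes tested, 2 were called higher with BMP4 and 3 lower. TFPI, an inhibitor of coagulation, was at 65.6 ± 5.27 with BMP4 against 6.45 ± 2.19 CPM with Activin+BMP4. F10, coagulation factor X, was at 1.27, 1.298 and 2.00 CPM in the BMP4 libraries and at 12.6, 11.5 and 11.7 CPM in those of Activin+BMP4. The others called were VTN, higher, and HP and C3, lower. Of 22 nuclear receptors and related regulators of lipid genes, 5 were higher and 1 was lower, with NR2F2 (10.3 ± 0.809 against 0.243 ± 0.0803 CPM) and PPARG (11.1 ± 1.35 against 0.651 ± 0.210 CPM) the most changed of that list at 10 CPM or more. HNF4A, described above, was not in that list.

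The members on chromosome 11 and chromosome 19 sit in gene clusters, and their neighbours within 100 kb were compared at 96 h. Around APOA1, the flanking genes BUD13 and ZPR1 differed by 0.13 and 0.06 on the log2 scale and were not called, and APOA5 had at most 0.0487 CPM and APOC3 0 CPM in the group means at 0, 48 and 96 h. Around APOE, the genes called were APOE, AC011481.3, APOC1 and APOC1P1, all lower with BMP4 and all starting within 21.05 kb of the APOE start. NECTIN2, TOMM40, CLPTM1, BCAM and RELB, on either side, differed by -0.01 to 0.46 and were not called. APOC2 and APOC4, which lie between APOC1P1 and CLPTM1, had group means of at most 0.0276 CPM at 0, 48 and 96 h. APOA1-AS, antisense to APOA1 over 8.64% of its exon bases, had 0 CPM in the 3 Activin+BMP4 libraries at 96 h. Its group means were 0.0547 CPM in untreated cells, 0.0657 CPM at 48 h of Activin+BMP4, 0.0795 CPM at 48 h of BMP4 and 0.0229 CPM at 96 h of BMP4. It did not pass the filter on low counts, and values this low do not show a difference.

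**Figure D4:**
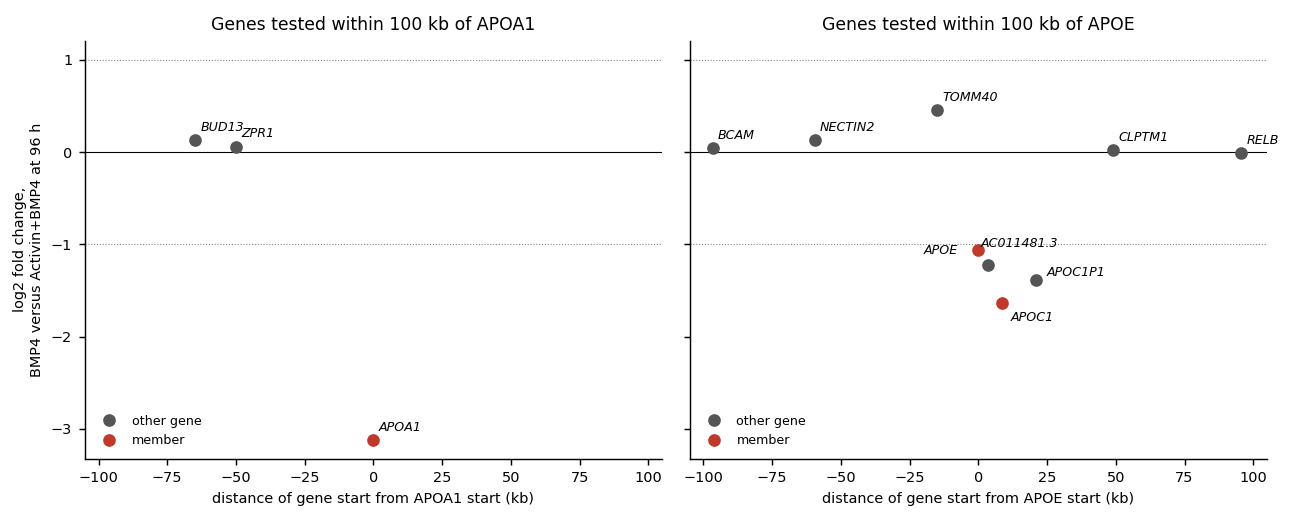
Log2 fold change of BMP4 versus Activin+BMP4 at 96 h (vertical axis) for each gene tested within 100 kb of APOA1 (left) and APOE (right), against the distance of its start from that of APOA1 or APOE in kb (horizontal axis). Members are red, other genes grey, and dotted lines mark a log2 change of 1. APOE, AC011481.3, APOC1 and APOC1P1 lie below -1, and the genes on both sides lie between -0.01 and 0.46.

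Across the 17 group means, APOA1, APOA2 and APOC1 ran together, with Pearson r of 0.95 for APOA1 and APOA2, 0.92 for APOA1 and APOC1 and 0.91 for APOA2 and APOC1 (n = 17 groups, which share the line and the untreated start). APOC1 was at 32.7 and 63.6 CPM at 72 and 96 h of Activin+BMP4 and at 16.7 to 21.4 CPM elsewhere. APOA1 and APOA2 had few counts up to 48 h. The r values of these genes, here and below, therefore rest mainly on a few late groups and do not show a shared course before 72 h. AFP ran against APOA2, at -0.64, but with APOB, at 0.74, and APOE ran against RBP4, at -0.65. Among 11372 genes that reached 10 CPM in some group, the ones closest to APOA1 were IHH (0.98), a hedgehog ligand, TMEM141 (0.97) and FMO5 (0.97). Those closest to APOA2 were F10 (0.99), ST6GALNAC2 (0.98) and APLP2 (0.98). For APOC1 they were MRPL22, CCDC81 and OXTR (each 0.97), for APOE BBC3 (0.95), GAS6 (0.94) and PANX2 (0.93), for APOB LRRTM4 (0.94), RPS27L (0.93) and INPP5D (0.93), and for AFP LRP11 (0.97), TNNT2 (0.97) and SYTL2 (0.95). The best values were lower for RBP4 (MTR, 0.88), APOM (RECQL5, 0.87) and AMN (RPRM, 0.82). RBP4 and AMN have few counts, with 394 and 381 over the 51 libraries, and APOM has 1523, near the 1784 of APOA1.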

How the data were processed

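Gene counts of 51 libraries were deposited by the authors as 1 table of whole numbers. Per the submitters' processing notes, RSEM 1.3.0, STAR 2.5.2a and cutadapt 1.5 were used with GRCh38, in roles the notes leave out; the annotation, the strand setting and any rounding of RSEM estimates are not given in the sources used here. Per the labels, libraries were made with the KAPA RNA HyperPrep kit from total RNA.

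Tests on the counts used edgeR 4.0.16 (R 4.3.3): filterByExpr over the 17 groups (minimum count 10, total 15), TMM factors (0.966 to 1.03), 1 mean per group and the quasi-likelihood F test, in 1 fit of all 51 libraries with 19 contrasts and Benjamini-Hochberg adjustment over all 19603 genes tested in each. A call needs an adjusted p under 0.05 and a change of 2-fold or more. CPM are counts over the library total of the genes that passed the filter, multiplied by the TMM factor of that library. A ratio over 1 to 3 counts has a 95% interval and a group at 0 a floor of 3 counts, both for counting error only. The script was tested on simulated data.

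Symbols were found for 56948 rows (98.1%). Positions, exon overlaps and exon lengths come from GENCODE 29 on GRCh38, and promoters from RefSeq.

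The members and gene lists were chosen with earlier results of these data known. Named were all 10 members; up to 4 called genes of a list at 10 CPM or more, largest change first; HNF4A, FOXA2, SOX17, GATA6 and CUBN; and the 3 genes most like each member by Pearson correlation of log2(group mean CPM + 0.5). TTR, APOH, APOC3, ALB, AHSG, SERPINA1 and AMBP were added to check the label, and neighbours and overlapping genes by position. APOL6, DGAT2, STRA6, VTN, HP, C3, TDO2, CSF1R and CER1 were named after their values were seen. Some genes that the rule covers are not reported here. Replicate numbers did not pair the libraries: same-numbered deviations correlated at -0.13 to 0.11, with all pairs over 0.1 in 0 of 18 comparisons. Alternatives were other scaling factors, other filters, DESeq2 1.42.0, only the groups compared, the replicate block and each library left out.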

Additional observations from a re-analysis of the deposited data

Results flagged for a closer look

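The change from 48 to 96 h differed between the conditions, by a test of that difference itself, for 8 of the 9 members tested. By DESeq2 it differed for 7, and by edgeR 15.7% of all genes were called. Values are the log2 change with BMP4 minus that with Activin+BMP4. It was lower with BMP4 for APOA2 (-4.91, edgeR quasi-likelihood adjusted p 4.9e-06), AMN (-3.15, 0.000289), APOA1 (-2.93, 0.00136), APOE (-1.47, 5.73e-21), APOC1 (-1.40, 1.06e-12) and APOB (-1.31, 0.00732). It was higher with BMP4 for AFP (2.21, 1.1e-07) and RBP4 (1.65, 0.0464). The RBP4 call rests on few counts and was kept in 7 of 18 alternatives. APOE and AFP had opposite directions in the means of the 2 conditions over this interval: APOE went from 219 to 536 CPM with Activin+BMP4 and from 290 to 256 CPM with BMP4, and AFP from 0.876 to 0.451 and from 0.939 to 2.23 CPM.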

How the results depend on the processing

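Of 53 calls of members, 41 were kept by every alternative run for them and 12 were lost by some, and 0 values changed sign. The 12 lie in RBP4, in AMN at 48 h, in APOA2 at 48 h against untreated, and in APOB in 3 comparisons. With the stricter filter, members called went from 2 to 1 (Activin+BMP4 24 h versus untreated), from 5 to 3 (Activin+BMP4 48 h versus untreated) and from 1 to 0 (BMP4 versus Activin+BMP4 at 24 h and at 48 h); RBP4 and AMN are not in that fit. With only the groups compared, they were 1, 2, 0 and 0. Leaving out 1 library in turn gave 1 to 2 and 3 to 4 for the first 2 of these, 0 to 2 for BMP4 versus Activin+BMP4 at 24 h and at 48 h, 0 to 1 at 36 h and 2 to 5 at 72 h, 1 to 2 for BMP4 24 h versus untreated and 1 to 3 for BMP4 48 h versus untreated. With the replicate block, the 53 calls were the same, and calls over all genes changed by 0.98 to 1.00 times. Over all genes, BMP4 versus Activin+BMP4 at 1 h had 1 call, against 148 with no filter, 7 with DESeq2 and 19 with only the groups compared, and at 6 h it had 99, against 243 with no filter. Where no cause is given, the cause was not tested. Depth limits APOA4, RBP4 and AMN, whose group totals run from 0 to 52 counts.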
